A study of Mus musculus with 16 samples.

Results

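Scd1, Fasn, Cyp51 and Lpl, 4 genes that make or take up lipid, were followed across the kidneys of 5 wild-type male littermates. All probes whose platform annotation gave a single symbol of one of these genes were taken, each as its own row, which gave 8 of the 20205 probes on the array, for 4 of 9669 genes so named. There were 1 probe for Scd1, 2 for Fasn, 2 for Cyp51 and 3 for Lpl, and 3 further probes that list one of the genes together with another gene were left out. The genes were selected on their log2 ratios in these same arrays, where they differed among the kidneys, so their differences between kidneys are described here and carry no test.

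The mice, named W1 to W5, for which the labels name no treatment and whose right kidneys were taken, were on a mixed C57BL/6 and 129Sv background, aged 88 ± 2 days and killed between 8 and 10 in the morning. Kidney RNA of W1, W2, W3 and W4 was each hybridised against that of W5 on 4 two-colour arrays, 16 arrays in all. Arrays 1 and 3 of a mouse carried it in channel 1 and W5 in channel 2, and arrays 2 and 4 carried W5 in channel 1. The design addressed how far transcript levels vary between normal individuals. Each kidney is 1 animal, and W5 stands on every array. The 4 arrays of a mouse repeat the same RNA extracts, so their spread is technical and nothing here refers to a population of mice.

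Stearoyl-CoA desaturase 1 (Scd1) puts a double bond into saturated fatty acids, and fatty acid synthase (Fasn) builds the saturated chain, palmitate, that desaturases and elongases then modify. Cyp51, lanosterol 14-alpha-demethylase, is the cytochrome P450 of cholesterol synthesis, and like Fasn and Scd1 it is known as a target of the sterol regulatory element binding proteins (SREBPs). Lipoprotein lipase (Lpl) works on the capillary wall, where it frees fatty acids from the triglyceride of circulating lipoproteins, and in most tissues it is made by parenchymal cells and fat cells and carried across the endothelium.

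The values are log2 ratios of a littermate to W5, or the reverse, since the numerator of the deposited ratio is not given in the sources used here. Signs were turned on the arrays with W5 in channel 1, and the side of W5 on which W1 lay for Scd1 was called side S and given positive values. A positive value therefore places a kidney on side S of W5 and a negative value on the opposite side, without saying which kidney held more transcript. W5 lies at 0, and the range of a probe is how far apart the 5 kidneys lie at most. Means are over n = 4 arrays per mouse, with the standard error (SE) of a linear model fitted to all 16 arrays. A ratio holds no level, so the probes cannot be ranked by abundance and the tissue label cannot be checked against the level of kidney markers. In whole kidney, fewer cells of a type and less RNA per cell cannot be told apart.

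An array gave values for 80.2% to 91.1% of probes, and 15715 probes with values on at least 3 arrays of every mouse were fitted. The median probe had a range of 0.24 and a residual standard deviation of 0.19. Of the 8 probes, 7 were measured on all 16 arrays. The other one, Fasn probe 7156, had a value on 1 array only, 0.0079 on array 3 of W1, and was not fitted.

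Scd1 had the widest range of the 7 fitted probes, and it placed W1 and W3 together on side S, away from W2, W4 and W5. On arrays 1 to 4, W1 lay at 0.54, 0.97, 0.86 and 0.63. W3 lay at 0.75, 0.65, 0.69 and 0.38. W2 lay at 0.22, 0.05, 0.15 and 0.10, and W4 at -0.05, -0.19, 0.01 and -0.25. All arrays of W1 and W3 lay beyond all arrays of W2 and W4, and the arrays of W1 and W3 overlapped each other.

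The means for Scd1 were 0.75 in W1, 0.62 in W3, 0.13 in W2 and -0.12 in W4, each ± 0.08 (SE, n = 4). The order from side S was therefore W1, W3, W2, W5 and W4, with a range of 0.87, or 1.83-fold. Between W3 and W2 the step was 0.48 ± 0.11, the largest between neighbours in this order. The step from W1 to W3 was 0.13 ± 0.11, and those from W2 to W5 and from W5 to W4 were 0.13 ± 0.08 and 0.12 ± 0.08, each at most 1.65 times its SE, although all 4 arrays of W2 lay on side S. With the littermate in channel 1, W3 was outermost at 0.72 and W1 followed at 0.70, and with W5 in channel 1 W1 was outermost at 0.80 and W3 followed at 0.51. W4 was last in both orientations. Mouse Scd1 has close relatives among the other desaturases, and whether its probe also binds their transcripts was not tested.

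**Figure D1:**
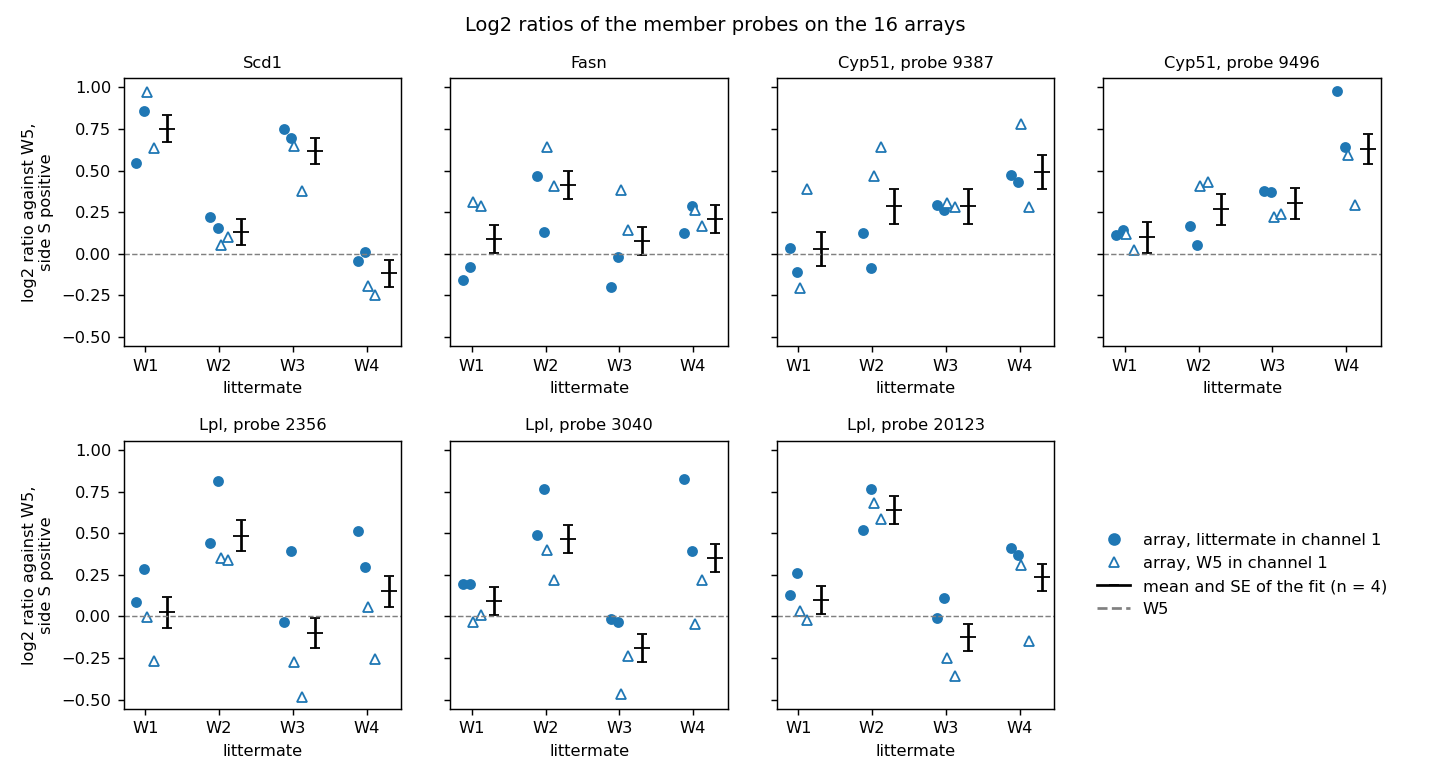
Log2 ratios against W5 (y axis, side S positive) of the 7 fitted probes of Scd1, Fasn, Cyp51 and Lpl for the littermates W1 to W4 (x axis); circles are arrays with the littermate in channel 1, triangles arrays with W5 in channel 1, and black marks the mean with its SE (n = 4). For Scd1 the arrays of W1 and W3 run from 0.38 to 0.97 and those of W2 and W4 from -0.25 to 0.22; for Lpl probe 20123 the arrays of W2 stand apart at 0.52 to 0.77.

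The Fasn probe (6751) showed a smaller range of 0.41, or 1.33-fold, with W2 outermost. W2 lay at 0.47, 0.64, 0.13 and 0.40 on its arrays 1 to 4, and W4 at 0.12, 0.26, 0.29 and 0.17. W1 lay at -0.16, 0.31, -0.08 and 0.29. W3 lay at -0.20, 0.39, -0.02 and 0.14. In W1 and W3 the arrays with the littermate in channel 1 were below 0 and those with W5 in channel 1 above 0, so the side of W5 on which these kidneys lay changed with the orientation of the array. The arrays of every pair of littermates overlapped.

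The means for Fasn were 0.41 in W2, 0.21 in W4, 0.09 in W1 and 0.08 in W3, each ± 0.08 (SE, n = 4), in the order W2, W4, W1, W3 and W5. No step between neighbours in this order exceeded 1.70 times its SE.

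Probes with nearby identifiers showed the same shift in W2. Of the 10 other fitted probes whose identifiers lie within 5 of the Fasn probe's, 9 correlated with it at r over 0.5 across the 16 arrays, the highest being Sbno2, the identifier just before it, at r = 0.90. Their mean was 0.41 in W2, 0.02 in W1, 0.12 in W3 and -0.0041 in W4. They include Ubxn1, Rftn1, Ptp4a3, Cd247, Parm1, Dusp2 and Ngdn, which belong to no list of lipid genes used here. Across the array, 7113 pairs of consecutive identifiers had a median r of 0.11, and 0.351% of them reached the r of Fasn and Sbno2. Within 40 identifiers of the Fasn probe, 33 of 62 fitted probes lay beyond 0.3 in W2, against 3.16% of all fitted probes.

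With the mean of the 10 neighbours taken off on each array, an alternative added after this correlation was seen, Fasn lay at -0.0030 in W2, 0.07 in W1, -0.04 in W3 and 0.21 in W4, each ± 0.07 (SE, n = 4). Its range was then 0.26, and W4 was outermost in place of W2. The value of W2 for Fasn thus moved with these neighbours, while that of W4 stayed at 0.21. What the identifiers say about the position of a spot on the slide is not known here.

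**Figure D2:**
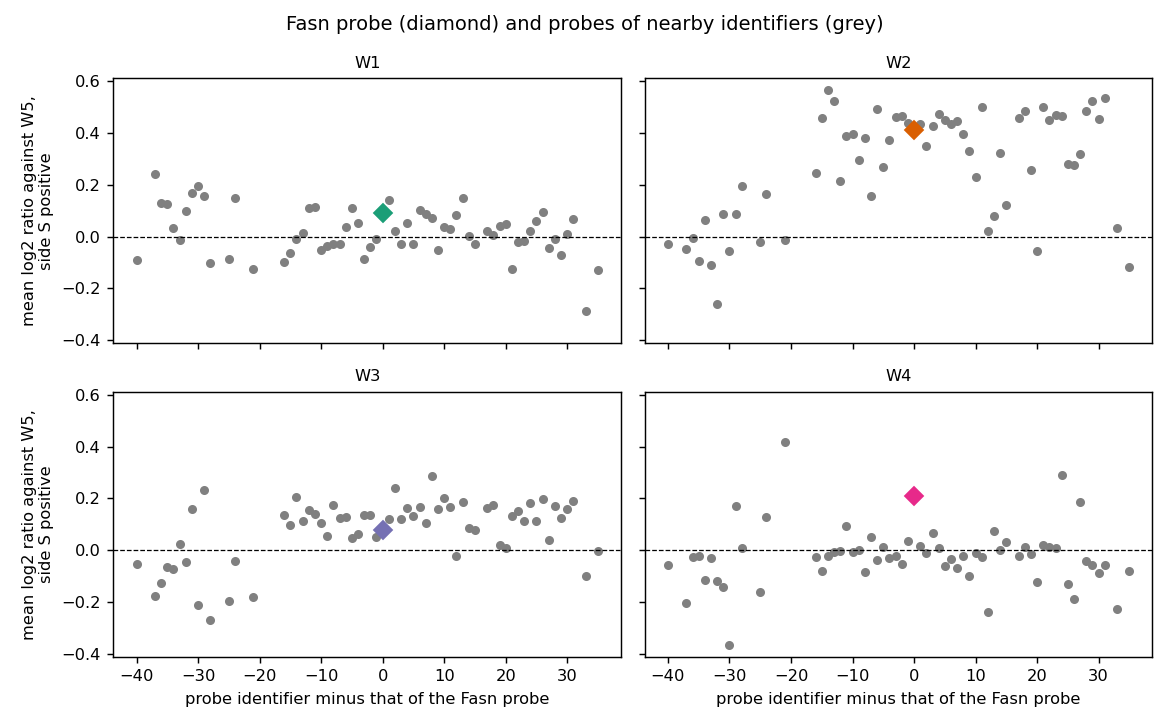
Mean log2 ratio against W5 (y axis, side S positive) of the Fasn probe (diamond) and of fitted probes with nearby identifiers (grey circles), by identifier distance from the Fasn probe (x axis), in one panel per littermate. In W2 the neighbours lie around the Fasn value of 0.41, with a median of 0.33 over the 62 probes within 40 identifiers, while in W4 that median is -0.02 and Fasn lies at 0.21.

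By their means, both Cyp51 probes placed W4 farthest on side S and W5 at the other end. For probe 9496, W4 lay at 0.98, 0.59, 0.64 and 0.30 on arrays 1 to 4. W3 lay at 0.38, 0.22, 0.37 and 0.24, and W2 at 0.17, 0.41, 0.05 and 0.43. W1 lay at 0.11, 0.12, 0.14 and 0.02. Every array of every littermate was above 0 for this probe, and the arrays of W4 overlapped those of W2 and W3 but not those of W1.

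For probe 9387, W4 lay at 0.47, 0.78, 0.43 and 0.28, and W3 at 0.29, 0.30, 0.26 and 0.28. W2 lay at 0.12, 0.47, -0.09 and 0.64. W1 lay at 0.03, -0.21, -0.11 and 0.39, on both sides of W5. The arrays of W3 were close together, and those of W2 were low with the littermate in channel 1 and high with W5 in channel 1.

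Probe 9496 gave means of 0.63 in W4, 0.30 in W3, 0.27 in W2 and 0.10 in W1, each ± 0.09 (SE, n = 4), a range of 1.55-fold. Probe 9387 gave 0.49 in W4, 0.28 in W3, 0.29 in W2 and 0.03 in W1, each ± 0.10 (SE, n = 4), a range of 1.41-fold. The step from W4 to its neighbour was 0.33 ± 0.13 for probe 9496 and 0.21 ± 0.15 for probe 9387. W2 and W3 stood in opposite order for the 2 probes, at distances of 0.04 ± 0.13 and 0.00051 ± 0.15, and cannot be ordered. For probe 9387, W4 and W2 were at 0.53 and 0.55 on the arrays with W5 in channel 1, where W2 was thus outermost, and at 0.45 and 0.02 on the others. For probe 9496, W4 and W2 were at 0.44 and 0.42 on the arrays with W5 in channel 1. On the others they were at 0.81 and 0.11, with W1 at 0.13. The distance of W4 from W2 thus came mostly from 1 orientation for both probes. Over the 16 arrays the 2 probes correlated at r = 0.77, after the channel term was taken out, and they share RNA, slide and W5.

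The promoters of Cyp51 and Fasn are shown because ATCACC, the opening letters of a known SREBP element, and CCAAT, bound by the factor NF-Y, can be read in both. The rest of that element was not searched. Sequences are from RefSeq on GRCm38.p6, 5′ to 3′ on the strand of the gene, and the table used held a window for 2 of the 4 genes. Capitals mark ATCACC, the letters that open the sterol regulatory element known from the LDL receptor promoter, CCAAT on either strand, and GGGCGG, the GC box. The Cyp51 sequence covers the 250 bases before the annotated start, chr5:4104698-4104947 on the minus strand. The Fasn sequences are stretches of 30 bases around its ATCACC, chr11:120824659-120824688, and around a CCAAT that overlaps another on the opposite strand, chr11:120824591-120824620, both on the minus strand.
Cyp51: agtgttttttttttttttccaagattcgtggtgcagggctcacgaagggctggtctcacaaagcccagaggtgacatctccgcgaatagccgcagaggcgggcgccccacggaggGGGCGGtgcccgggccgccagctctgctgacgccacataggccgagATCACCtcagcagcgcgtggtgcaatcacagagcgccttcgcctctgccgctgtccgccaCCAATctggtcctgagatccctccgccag
Fasn, ATCACC: tgttgccggcccATCACCctattgcctagc
Fasn, CCAAT: ggcctcggtgtCCAATTGGtttcgatgtgg
In Cyp51 the ATCACC lay 89 to 84 bases before the start and the CCAAT 29 to 25 bases before it. In Fasn the ATCACC lay 129 to 124 bases before the start. Both motifs were searched on both strands in 32851 promoter windows of 250 bases, of which 8.48% held ATCACC, 33.9% held CCAAT and 2.95% held both. GGGCGG was in 32.7% of windows. A match describes the letters only, and the arrays measured no binding. Fasn and Cyp51 correlated at r = 0.18 with either Cyp51 probe over the 16 arrays.

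All 3 Lpl probes gave the same order of kidneys, W2, W4, W1, W5 and W3 from side S. For probe 20123, W2 lay at 0.52, 0.68, 0.77 and 0.59 on arrays 1 to 4. W4 lay at 0.41, 0.31, 0.37 and -0.15, and W1 at 0.13, 0.03, 0.26 and -0.02. W3 lay at -0.01, -0.25, 0.11 and -0.36. The arrays of W2 lay beyond those of every other kidney, and those of W1, W3 and W4 overlapped.

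Probe 3040 had W2 at 0.49, 0.40, 0.77 and 0.22 and W3 at -0.01, -0.47, -0.03 and -0.24. W2 was thus on side S on every array and W3 on the opposite side on every array. W4 lay at 0.82, -0.04, 0.39 and 0.22, the widest spread of a kidney for this probe, and W1 between -0.04 and 0.20. Probe 2356 had W2 between 0.34 and 0.81, W4 between -0.26 and 0.51, W1 between -0.27 and 0.28 and W3 between -0.48 and 0.39.

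The mean of W2 was 0.64 ± 0.08 for probe 20123, 0.47 ± 0.08 for probe 3040 and 0.49 ± 0.09 for probe 2356 (SE, n = 4). That of W3 was -0.13, -0.19 and -0.10 with the same errors. W4 lay at 0.24, 0.35 and 0.15, and W1 at 0.10, 0.09 and 0.03. The ranges were 0.77, 0.65 and 0.59, the first being 1.70-fold and the second 1.57-fold. The step from W2 to W4 was 0.40 ± 0.12, 0.12 ± 0.12 and 0.34 ± 0.13 for these probes, so W2 and W4 were apart for probe 20123, and for probe 3040 they were not apart beyond their spread. W1 and W5 differed by at most 0.10 ± 0.08. Over the 16 arrays the 3 probes correlated at r = 0.71 to 0.94 after the channel term was taken out, and they come from the same RNA and slides. With the mean of its 5 neighbours in identifier taken off, as for Fasn, probe 3040 had W4 outermost at 0.85 and W2 next at 0.68, each ± 0.19 (SE, n = 4). The order of means shared by the 3 probes thus did not hold under that alternative, though W4 and W2 were not apart beyond their errors there. Its neighbours correlated with it at r = -0.80 to 0.02. Their mean in W4 was -0.44, and they spanned -1.25 to 0.27 there.

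**Figure D3:**
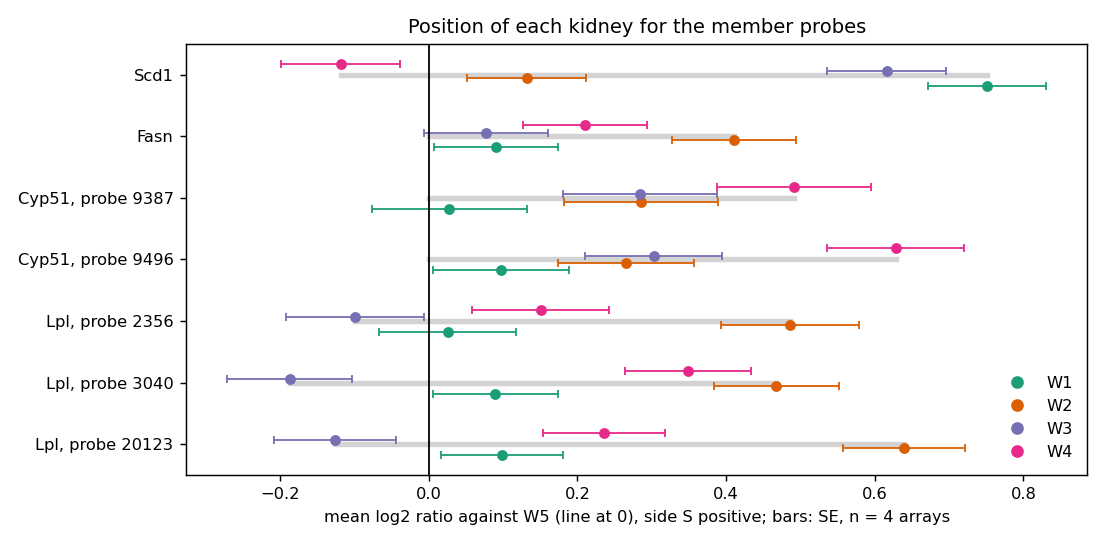
Mean log2 ratio against W5 (x axis, side S positive, W5 at the vertical line at 0) of the littermates W1 to W4 for each fitted probe (y axis), with bars for the SE (n = 4) and a grey line for the range. W1 (0.75) and W3 (0.62) are outermost for Scd1, W4 for both Cyp51 probes (0.49 and 0.63), and W2 for Fasn (0.41) and the 3 Lpl probes (0.47 to 0.64).

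The order of the kidneys thus differed between the genes. Scd1 correlated with the other 6 probes at r = -0.38 to -0.67 over the 16 arrays. Fasn correlated with the Lpl probes at 0.52 to 0.67, with W2 outermost for both genes, and the W2 value of Fasn is the one that its neighbours shared. Cyp51 correlated with Lpl at 0.14 to 0.30. These values are descriptions over arrays that share W5 and, within a mouse, the extract.

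In the 5-kidney comparison, which asks whether any kidney differs, 629 of the 15715 probes were called at an adjusted p under 0.05, which is 4.00%, and all 7 fitted probes of the 4 genes were among them. Among W1 to W4, where W5 cancels, 110 probes or 0.700% were called, with Scd1 and Lpl probes 3040 and 20123 among them. The genes were chosen for these differences, and nothing is read from either count. The call of Fasn was lost without array 1 or array 2 of W2, and that of Lpl probe 2356 without array 2, 3 or 4 of W2. Both were also lost without a channel term, and that of Fasn with arrays scaled to a common spread.

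The channel term, the part of a ratio that changes with the channel that holds the littermate, was not used to choose the genes and was tested. It was called for 1959 probes, 12.5% of those fitted, and for 2 of the 7 probes here, both of Lpl. Its size was 0.21 ± 0.05 for Lpl probe 2356 (SE, limma, adjusted p = 0.0110) and 0.17 ± 0.04 for probe 3040 (SE, limma, adjusted p = 0.0168). Probe 20123 had 0.11 ± 0.04, with an adjusted p of 0.0882 by limma. For Fasn it was 0.13 ± 0.04, with an adjusted p of 0.0515, and for Cyp51 and Scd1 the adjusted p lay between 0.233 and 0.685.

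For Lpl probe 2356 every kidney was nearer side S with the littermate in channel 1. W1 lay at 0.19 against -0.14 with W5 in channel 1, W2 at 0.63 against 0.34, W3 at 0.18 against -0.38 and W4 at 0.40 against -0.10. The side of W5 on which W1, W3 and W4 lay for this probe therefore changed with the orientation. Within each orientation W2 was first and W3 last among W1 to W4 for all 3 Lpl probes, though for probe 2356 with the littermate in channel 1 W3 and W1 were at 0.18 and 0.19. With the littermate in channel 1, W3 lay on side S of W5 for probes 2356 and 20123, at 0.18 and 0.05, so W5 was last there. The channel term is the same for all kidneys in the fit and cancels among W1 to W4.

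Genes of the same pathways were taken from 5 lists that leave out the 4 genes, and 9 of their 85 fitted probes, from 71 genes, were called in the 5-kidney comparison. That is 10.6%, beside the 4.00% of all fitted probes. The lists were chosen with earlier results of these data known, so nothing is read from the difference between these shares. At an unadjusted p under 0.05 were 2806 of all fitted probes, or 17.9%, the share beside which the unadjusted counts of the lists are to be read. Of the 85 probes of the 5 lists 32 were, and nothing is read from that count either.

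Of fatty acid synthesis and desaturation, 0 of 21 probes from 19 genes were called by limma, with 5 at an unadjusted p under 0.05, beside 4.00% called and 17.9% unadjusted over all fitted probes. Acly, which supplies cytosolic acetyl-CoA, had a range of 0.27 (adjusted p = 0.524). Acaca, which makes the malonyl-CoA that Fasn uses, had a range of 0.34 (adjusted p = 0.631). The widest uncalled range was 0.70, that of Fads1 probe 12549, a desaturase of polyunsaturated chains, with W4 at 0.56 (adjusted p = 0.245), while its other probe had W4 at -0.15. The median range of the list was 0.26, beside 0.24 over all fitted probes.

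Of cholesterol synthesis, 0 of 10 probes from 10 genes were called by limma, with 3 at an unadjusted p under 0.05, beside the same shares. The widest range was 0.45, that of Pmvk, phosphomevalonate kinase, with W2 at 0.34 (adjusted p = 0.165). In W4, where Cyp51 lay at 0.49 and 0.63, the 10 probes of the list spanned -0.15 to 0.23 with a median of 0.03. The median range of this list was 0.30.

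Of sterol and lipogenic regulation, 2 of 16 probes from 11 genes were called, with 7 at an unadjusted p under 0.05 and a median range of 0.28. Ppard, a nuclear receptor for fatty acids, lay at -0.78 ± 0.09 in W3 and -0.30 in W4, while W1 lay at 0.0032 and W2 at 0.10 (SE, n = 4, limma, adjusted p = 0.000435). Ppargc1a, a coactivator of oxidative metabolism, lay at 0.57 ± 0.09 in W3 and 0.25 in W4, while W1 lay at -0.02 and W2 at 0.12 (limma, adjusted p = 0.00312). Both had W3 outermost, a kidney that was last for Lpl and next to W1 for Scd1. Srebf2, the SREBP of cholesterol synthesis, was measured by 2 probes with ranges of 0.26 and 0.21 (adjusted p = 0.468 and 0.533). Ppargc1b had the widest uncalled range, 0.71 (adjusted p = 0.237), with W4 at -0.60.

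Of partners of lipoprotein lipase and of lipoprotein uptake, 2 of 17 probes from 15 genes were called. At an unadjusted p under 0.05 were 6, and the median range was 0.32. Apoe, a ligand of lipoprotein receptors, lay at -0.44 ± 0.10 in W4 and -0.39 in W2, against -0.22 in W1 and -0.16 in W3 (SE, n = 4, limma, adjusted p = 0.00747). Apoc1, a lipoprotein component that restrains lipase action, lay at 0.36 ± 0.08 in W2, against 0.15 in W1, 0.14 in W3 and 0.20 in W4 (limma, adjusted p = 0.0313). The Apoc1 call was lost in 9 of 22 alternatives, including those without array 1, 2, 3 or 4 of W2.

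Gpihbp1, which carries Lpl to the capillary lumen, had a range of 0.08 (adjusted p = 0.877). Angptl4, an inhibitor of Lpl, had a range of 0.59 with W1 at 0.36 and W3 at -0.23 (adjusted p = 0.185). Lrp2 probe 807, of the endocytic receptor megalin of the proximal tubule, had the widest uncalled range at 0.61 (adjusted p = 0.171), and its other probe had 0.21.

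Of triglyceride synthesis and lipid droplets, 5 of 21 probes from 16 genes were called. At an unadjusted p under 0.05 were 11, and the median range was 0.28. Gpam, the mitochondrial enzyme of the first acylation of glycerol phosphate, lay at -0.51 ± 0.07 in W2, -0.45 in W1, -0.30 in W4 and -0.10 in W3 (SE, n = 4, limma, adjusted p = 6.73e-05). Fitm1, a membrane protein of droplet formation, lay at 0.45 ± 0.07 in W4 and 0.41 in W2, against 0.23 in W1 and 0.04 in W3 (limma, adjusted p = 0.000203). Cidec, a droplet protein of fat cells, lay at 0.85 ± 0.16 in W4 and 0.68 in W3, against 0.37 in W1 and 0.36 in W2 (limma, adjusted p = 0.00219).

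Plin4, a droplet coat protein, lay at 0.46 ± 0.09 in W2, 0.29 in W4, 0.18 in W3 and 0.02 in W1 (SE, n = 4, limma, adjusted p = 0.00659). Its probe is near that of Fasn in identifier, and the mean of its own neighbours in W2 was 0.35. Probe 19975 of Mgll, which cleaves monoglycerides, lay between -0.11 in W3 and 0.29 in W4 (limma, adjusted p = 0.0348), and its call was lost in 14 of 22 alternatives. Mgll probes 957 and 19198 were not called (limma, adjusted p = 0.108 and 0.485) and had W3 on side S, at 0.18 and 0.05. The widest uncalled range was 0.88, that of Cidea, with W4 at 0.88 (adjusted p = 0.112).

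**Figure D4:**
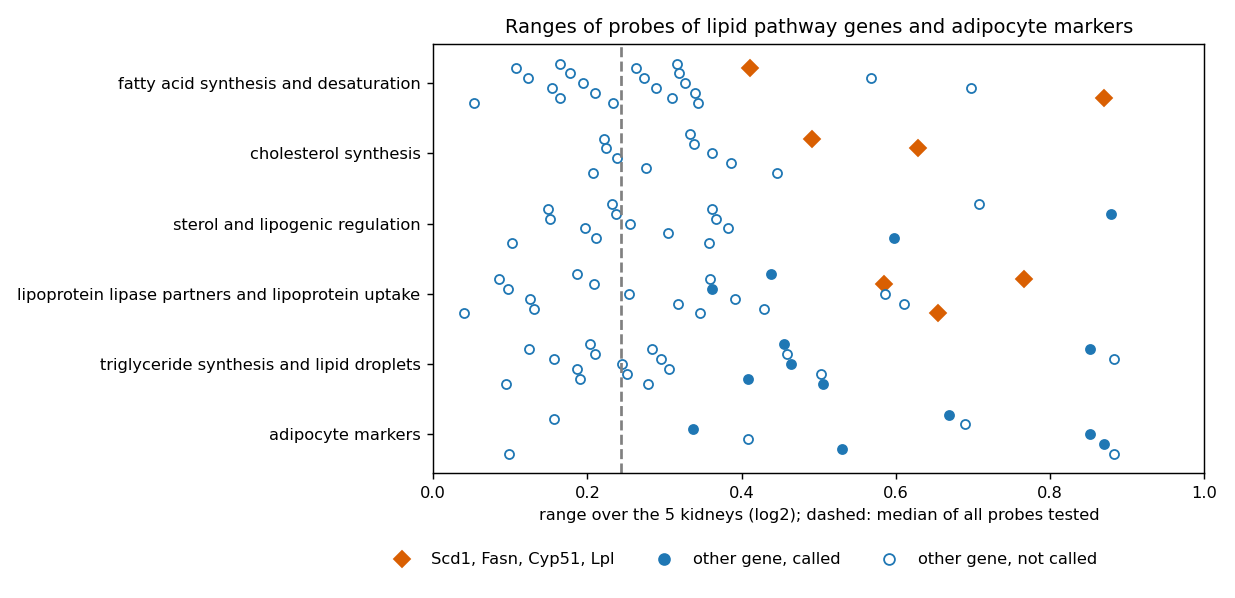
Range over the 5 kidneys (x axis, log2) of each fitted probe in the 5 lipid pathway lists and the adipocyte markers (y axis); orange diamonds are Scd1, Fasn, Cyp51 and Lpl, blue circles other genes, filled where called, and the dashed line is the median of all fitted probes, 0.24. In the first 2 lists the other probes are all open circles, at ranges up to 0.70 and 0.45. Scd1 lies at 0.87, the Cyp51 probes at 0.49 and 0.63, and Fasn at 0.41, within the span of its list. The 4 genes were chosen for their differences in these same arrays, so nothing is read from their place.

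Markers of other cell types moved between the kidneys as well. Fat cells express Scd1, Fasn and Lpl, and of 10 fitted probes of adipocyte markers 5 were called, those of Fabp4, Cidec and Aqp7 and both of Car3. At an unadjusted p under 0.05 were 7. Over all fitted probes 4.00% were called, but the marker lists were chosen with earlier results of these data known, so nothing is read from that difference. The adipocyte list had medians of 0.37 in W4, 0.28 in W3, 0.14 in W1 and 0.12 in W2, and spanned -0.09 to 0.88 in W4, -0.40 to 0.68 in W3, -0.08 to 0.47 in W1 and -0.20 to 0.67 in W2. By these medians W4 was outermost, whereas for Scd1 W4 was last and for Lpl W2 was outermost. Car3 probe 19583, a carbonic anhydrase abundant in fat, lay at 0.87 in W4, 0.63 in W3, 0.62 in W2 and 0.38 in W1 (limma, adjusted p = 2.14e-06). As for Cyp51 probe 9496, W4 was outermost and W1 nearest to W5, and W2 and W3 cannot be ordered. Fabp4, the fatty acid binding protein of fat cells, lay at 0.67 in W2, 0.64 in W3, 0.47 in W1 and 0.31 in W4 (limma, adjusted p = 3.80e-05), with W2 outermost as for Lpl, but with W3 next to it, which was last for Lpl. The other 4 called adipocyte probes had W4 outermost, as both Cyp51 probes did. Retn and Lipe, also markers of fat cells, had ranges of 0.10 and 0.16 (adjusted p = 0.611 and 0.838). Slc2a4, of the same list, lay at 0.29 in W1, -0.09 in W4 and -0.40 in W3 (limma, adjusted p = 0.587). The part of fat cells in the values of the 4 genes was not tested.

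Of 10 endothelial probes 4 were called, those of Egfl7, Esm1 and Emcn and probe 3038 of Flt1, with 5 at an unadjusted p under 0.05. Probe 2221 of Flt1 had a range of 0.22 (limma, adjusted p = 0.406). The list had medians of -0.31 in W2, -0.25 in W4, -0.05 in W1 and 0.00090 in W3. The list spanned -0.54 to 0.11 in W2, -0.74 to -0.06 in W4, -0.14 to 0.35 in W1 and -0.14 to 0.21 in W3. By the medians W1 and W3 were nearer side S than W2 and W4, as they were for Scd1. W5, at 0, lay by W1 and W3 here, while for Scd1 it lay between W2 and W4. Not every marker followed the medians: Vwf lay at 0.11 in W2, -0.05 in W1 and -0.14 in W3, and Gpihbp1 had a range of 0.08. The part of endothelial cells in the Scd1 values was not tested. Of the other lists, 0 of 5 adrenal cortex probes were called by limma, with 1 at an unadjusted p under 0.05, and 0 of 10 muscle probes, with 4 unadjusted. Of 12 macrophage and leukocyte probes 1 was called, of Lyz2, with 4 unadjusted. Of 9 kidney tubule and glomerulus probes 2 were called, those of Podxl and Aqp2, with 6 unadjusted. Over all fitted probes 4.00% were called and 17.9% had an unadjusted p under 0.05.

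The probes most like each gene were sought among 7017 named probes measured on all 16 arrays, by Pearson r after the channel term was taken out. For Scd1 they were Esm1 (r = 0.94), Igfbp3 (r = 0.90), Fbln5, H2-Eb1 and Ccn2, and 366 probes had r over 0.5. Esm1 lay at -0.14 in W1 and -0.04 in W3, and at -0.54 in W2 and -0.74 in W4, so it shared with Scd1 the distance between W1 and W3 on the one hand and W2 and W4 on the other, but with W5 near W1 and W3. For Lpl probe 2356 the nearest were Lpl probe 20123 (r = 0.94), Cyp4a14 (r = 0.91), Gldc (r = 0.86), Zbtb8os and Dync1i2. Cyp4a14 lay at 1.63 in W2, 0.86 in W4, 0.68 in W1 and 0.33 in W3, the order of Lpl among the littermates.

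For Cyp51 probe 9387 the nearest were Cntfr, Ctps, Hspa5, Marchf8 and Pla1a, at r = 0.82 to 0.83, none of them called in the 5-kidney comparison, and 290 probes had r over 0.5. For Fasn they were Sbno2, its neighbour in identifier, then Entpd1, Dhrs4, Lrrc14 and Msl1, at r = 0.80 to 0.90, none of them called. These likenesses were picked as the highest of 7017 over arrays that share W5 and repeat extracts, and they describe these arrays only.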

How the data were processed

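Per the labels, 20 µg of kidney RNA from RNeasy Midi columns were reverse transcribed, labelled indirectly with Cy3 or Cy5 and hybridised at 42 °C for 18 to 20 hours. The authors subtracted background from mean intensities and scaled each array to a median ratio of 1, per the labels. The deposited values are ratios on a log2 scale: read as log2, 1.55% to 4.90% of an array's values matched a quotient of integers no greater than 12 to within 2e-06, and read in other log bases at most 0.123% did. Not given in the sources used here are the dyes per channel, the numerator and why some cells are empty.

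limma 3.58.1 in R 4.3.3 fitted 4 mouse coefficients and a probe-specific channel term to the 15715 probes with values on at least 3 of 4 arrays of every mouse. Moderated F tests addressed the 5 kidneys and the differences among W1 to W4, and the channel term was tested two-sided. Benjamini-Hochberg adjustment ran over all fitted probes, and a probe was called under 0.05. The fit was checked on simulated arrays: the recovery required of it at 2-fold and 3-fold was reached with moderated residual SDs as noise, and that at 2-fold was narrowly missed with unmoderated ones, the noise setting first used. Of 20205 probes, 11723 have 1 symbol in the platform annotation, 806 several and 7676 are unnamed here. Of the pathway lists, every called probe is named, with the uncalled gene of widest range in each list; other list genes were named after their values were seen. The 5 probes of highest r are named per gene. The 4 genes and all lists were chosen with earlier results of these data known.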

Additional observations from a re-analysis of the deposited data

Results flagged for a closer look

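For Lpl probe 3040, all 4 arrays of W2 lay on one side of W5 and all 4 arrays of W3 on the other, at means 0.654 apart on the log2 scale. This difference was not tested, since Lpl was chosen for its differences among these kidneys. Arrays 1 and 3 of W3, with the littermate in channel 1, lay close to W5 at -0.01 and -0.03, and the channel term was called for this probe. For Lpl probes 2356 and 20123, array 3 of W3 lay on side S, at 0.39 and 0.11. Of 28 sets of 4 arrays, 1 set per probe and mouse, 0 held an array far from the others by Dixon's criterion.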

How the results depend on the processing

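Without a channel term, 403 probes were called among the 5 kidneys and 62 among W1 to W4, beside 629 and 110, and with array weights 240 among W1 to W4. Leaving out 1 array in turn gave 457 to 671 and 72 to 125 calls, lowest without array 1 of W2 and array 2 of W3. For the channel term it gave 1267 to 1915 beside 1959, with 1302 without array 3 of W2, 1267 without array 4 of W2 and 1268 without array 1 of W4. In the pathway lists 7 to 12 probes were called over 22 alternatives, beside 9. The range among W1 to W4 was 1.02 for Scd1 with only the arrays that hold W5 in channel 1, beside 0.87. For Lpl probe 20123 it was 0.94 on those arrays and 0.59 on the others, beside 0.77. With the mean of neighbouring identifiers taken off, added after the data were seen, the Fasn range was 0.26 and that of Lpl probe 3040 was 0.94, over 5 kidneys and among W1 to W4. W4 replaced W2 as outermost for both, though for Lpl probe 3040 W4 and W2 were not apart beyond their errors. The other ranges moved by less than the spread between arrays. Leaving aside single orientations and the neighbours, the kidney farthest toward side S was the same in all 22 alternatives for each of the 7 probes.

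With the array number as a replicate block, 590 probes were called among the 5 kidneys, 97 among W1 to W4 and 8 in the pathway lists, the lost call being Mgll. The array number also sets the orientation, so this block takes in the channel term. On adjusted rather than deposited values, arrays of the same number correlated at -0.253 to 0.135 over 24 pairs. On those values 0 arrays correlated best with their own number. Deposited values correlated at 0.015 to 0.386 between arrays of the same orientation. Whether arrays of the same number were handled together is not known here. Precision is limited by the small number of arrays and mice, and every comparison shares W5, a single kidney.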
